A study of Mus musculus with 24 samples.

Results

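Mt1 and Mt2 encode the metallothioneins made in most mouse organs. Both were picked by symbol, as the rows named Mt1 and Mt2, which makes 2 of the 33272 genes of the expression table, and both are described in all 24 libraries of the study. Metallothioneins are short, cysteine-rich proteins that hold zinc, copper and cadmium. Zinc activates their genes through the transcription factor MTF1, and glucocorticoids, interleukin-6 and oxidants raise them in liver. The protein can also bind platinum drugs, and liver and kidney are its main sites of synthesis.

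RNA was sequenced from kidney and liver of C57BL/6 mice. In the combination arm, mice received CBLB502, a drug made from bacterial flagellin that activates the receptor TLR5, at 0.2 mg/kg and, 30 min later, cisplatin at 20 mg/kg into the peritoneum. The cisplatin arm received 20 mg/kg cisplatin alone, the CBLB502 arm 0.2 mg/kg CBLB502 alone, and the control arm no treatment. Tissue was collected 72 h after treatment, and no time is given for the controls. Each organ and arm has 3 libraries, which makes 8 groups. The labels give no age or sex and do not say that libraries of a group are separate animals, so p-values measure the spread between libraries, which may be technical. Libraries are named by their column number: treated kidney columns run from 4 to 6, a numbering the labels do not use, and the others from 1 to 3.

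The pair lies on chromosome 8 of the mouse build GRCm38, and the deposited coordinates match those of the GENCODE vM21 annotation. Mt2 (ENSMUSG00000031762) covers 94172664 to 94173568 and Mt1 (ENSMUSG00000031765) covers 94179082 to 94180327, both on the plus strand, with 5513 bases between them. Each has 3 exons and a coding region of 61 codons, of which 20 encode cysteine, at the same positions in both. Over the 183 coding bases the genes are identical at 145 (79.2%), and the longest stretch shared by their transcripts is 20 bases. The other family genes are Mt3, at 94152607 to 94154146, and Mt4, at 94137197 to 94139031.

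The promoter windows below are printed because both genes moved together across the study. They come from RefSeq (GRCm38.p6, 250 bases before to 50 after the RefSeq start, plus strand), Mt1 from chr8:94178839-94179138 and Mt2 from chr8:94172368-94172667. Capitals mark matches to the core of the metal response element, searched on both strands as TGCGCNC and TGCACNC.
Mt1: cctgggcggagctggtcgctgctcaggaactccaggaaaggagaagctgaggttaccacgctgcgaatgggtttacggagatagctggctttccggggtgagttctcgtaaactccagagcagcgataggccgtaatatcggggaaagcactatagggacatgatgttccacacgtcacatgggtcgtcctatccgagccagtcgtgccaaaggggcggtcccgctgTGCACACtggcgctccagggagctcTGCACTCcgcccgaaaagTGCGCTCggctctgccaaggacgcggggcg
Mt2: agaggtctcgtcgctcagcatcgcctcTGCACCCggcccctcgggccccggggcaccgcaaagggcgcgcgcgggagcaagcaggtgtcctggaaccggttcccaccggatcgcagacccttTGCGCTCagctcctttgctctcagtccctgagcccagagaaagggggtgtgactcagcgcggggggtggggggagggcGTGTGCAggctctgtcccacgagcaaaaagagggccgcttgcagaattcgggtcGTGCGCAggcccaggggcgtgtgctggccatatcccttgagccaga
The Mt1 window held 3 such matches and the Mt2 window 4. Of 32851 promoter windows of the same length, 25.7% held at least 1 match, 1.97% at least 3 and 0.518% at least 4, and the windows of Mt3 and Mt4 held 1 each. The Mt2 window held 1 match to the antioxidant response element core TGACNNNGC, present in 12.4% of windows, and the Mt1 window none. Neither held the STAT element TTCNNNGAA, present in 8.30% of windows, or the TATA box TATAAA, present in 13.6%. These letters describe the windows and do not show that a factor binds there. The annotation also holds shorter transcripts that start further downstream, at 94179241 for Mt1 and 94172860 for Mt2. Between the printed window and the end of the first exon lie 2 more metal response element matches in Mt1 and 3 in Mt2. The antioxidant, STAT and TATA letters were searched in the printed windows only. The bases between a window and the later start of its gene were not searched for them. Absence from a window therefore does not show that the promoter of Mt1 or Mt2 lacks these letters.

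Libraries held 40.58 to 77.54 M counts (M for mega). In the 6 control libraries most counts fell on mitochondrial genes and 7 nuclear copies of them, which left 2.82 to 4.65 M other counts in liver and 5.05 to 10.1 M in kidney, so a difference from control is also a difference between these libraries. In liver the 6 hepatocyte markers summed to 55232 to 73403 counts per M (CPM, on the TMM-scaled library sizes of an organ) in the combination, 56014 to 81347 in cisplatin, 44614 to 56194 with CBLB502 and 12694 to 26671 in controls. In kidney the 6 proximal tubule markers summed to 11726 to 14124, 4805 to 15288, 14826 to 21168 and 8011 to 13623 CPM in the same arms. Cdkn1a, the cell cycle inhibitor induced by DNA damage, was at 181 to 222 CPM in combination kidney, 74.3 to 626 in cisplatin kidney, 3.24 to 4.68 in CBLB502 kidney and 9.23 to 16.2 in control kidney. In liver it was at 211 to 246, 103 to 423, 1.95 to 3.11 and 3.02 to 6.04 CPM in the same arms. One cisplatin library in each organ, library 6 in kidney and library 3 in liver, had the least Cdkn1a of its group and also stood apart in Mt1 and Mt2.

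In kidney, both metallothioneins were higher where cisplatin had been given, and far higher except in cisplatin library 6. Mt1 was at 419, 346 and 336 CPM in combination libraries 4, 5 and 6, at 2721, 3726 and 99.0 CPM in cisplatin libraries 4, 5 and 6, at 49.7, 41.1 and 52.0 CPM with CBLB502, and at 46.5, 28.8 and 38.2 CPM in controls 1, 2 and 3. All 6 libraries exposed to cisplatin were above all 6 that were not, and the cisplatin arm held both the highest libraries and, in library 6, the lowest exposed one. Mt2 was at 198, 181 and 151 CPM in combination libraries, at 1292, 1584 and 47.2 CPM in cisplatin libraries, at 14.2, 12.3 and 18.2 CPM with CBLB502, and at 16.3, 7.71 and 12 CPM in controls. Its libraries fell in the same pattern, with cisplatin library 6 again the lowest of the exposed.

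**Figure D1:**
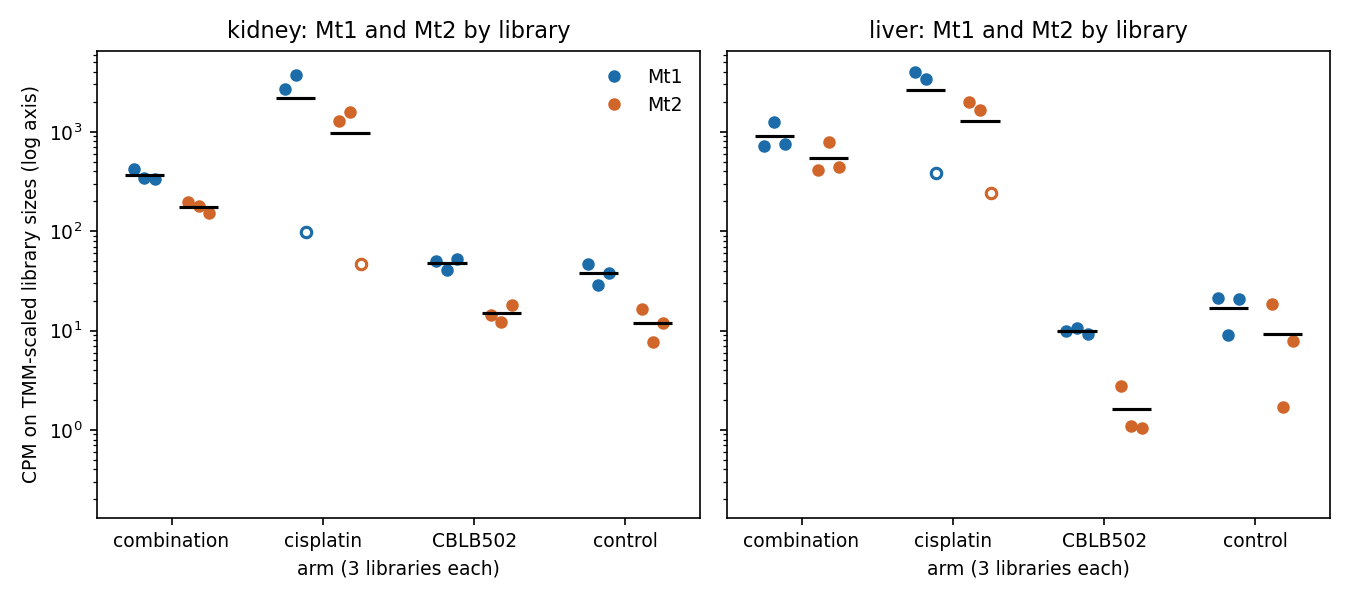
Level of Mt1 (blue) and Mt2 (orange) in each library, in CPM on TMM-scaled library sizes of the organ (log axis), by arm. Points are single libraries, black lines are means of 3 libraries, and the open points are kidney cisplatin library 6 and liver cisplatin library 3, which lie below both other libraries of their group for both genes.

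Cisplatin alone raised Mt1 57.7-fold over control by mean CPM in kidney (log2 fold change 5.85 ± 0.948 SE, adjusted p = 0.000662 by the quasi-likelihood test of edgeR, adjusted by Benjamini-Hochberg over 20341 genes). It raised Mt2 81.1-fold (6.35 ± 0.977, adjusted p = 0.000478). Both were called, that is, past the adjusted threshold of 0.05, as were 24.1% of genes tested on the higher side of that comparison. The combination raised Mt1 9.70-fold over control (3.28 ± 0.841, adjusted p = 0.00981) and Mt2 14.7-fold (3.89 ± 0.873, adjusted p = 0.00476), where 21.5% of genes were called higher. These calls held when any 1 library was left out, although without cisplatin library 5 the Mt1 value with cisplatin was 5.19 over control and 4.88 over CBLB502. In the same 2 comparisons with control, 5 of 6 hepatocyte markers were called higher in kidney, where they summed to 285 to 393 CPM in the combination, 262 to 448 in cisplatin, 175 to 257 with CBLB502 and 44.7 to 86.2 in controls, and their part was not tested. In bulk RNA, a change in the number of cells that express a gene and a change in RNA per cell cannot be told apart.

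With CBLB502 alone, no change of the kidney metallothioneins passed the test. Mt1 averaged 47.6 ± 5.77 CPM (SD, n = 3) with CBLB502 and 37.8 ± 8.87 CPM in controls, a log2 fold change of 0.33 ± 0.773 SE (edgeR adjusted p = 0.808). Mt2 averaged 14.9 ± 2.99 CPM with CBLB502 and 12 ± 4.31 CPM in controls, a log2 fold change of 0.32 ± 0.787 SE (adjusted p = 0.820). Neither was called, in a comparison that called 19.2% of genes in either direction, and the groups overlapped for both genes.

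The comparisons with the CBLB502 arm do not set any arm against the control libraries. The controls still enter the gene filter, the scaling and the estimate of spread, since all 12 libraries of an organ were fitted together. The combination raised Mt1 7.72-fold over CBLB502 alone in kidney (2.95 ± 0.826, edgeR adjusted p = 0.0234) and Mt2 11.9-fold (3.57 ± 0.853, adjusted p = 0.0108), where 14.9% of genes were called higher. The Mt1 call ended without combination library 4 or 5 or without any 1 of CBLB502 libraries 4, 5 and 6 (adjusted p up to 0.0897), and the Mt2 call without CBLB502 library 4 or 5 (up to 0.0539). Cisplatin alone raised Mt1 45.9-fold over CBLB502 (5.52 ± 0.931, adjusted p = 0.00159) and Mt2 65.4-fold (6.03 ± 0.958, adjusted p = 0.0012), where 18.5% of genes were called higher. These 4 kidney comparisons share arms and are not independent of each other.

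Whether the metallothionein response to cisplatin in kidney was smaller after CBLB502 turned on 1 library. By mean CPM, Mt1 was 5.94-fold lower in the combination than in cisplatin (log2 fold change -2.57 ± 0.813, unadjusted p = 0.00839 and adjusted p = 0.257 by edgeR) and Mt2 5.51-fold lower (-2.46 ± 0.812, unadjusted p = 0.0106, adjusted p = 0.265). Neither was called, and the whole comparison called 0.00492% of genes, a single gene. Adjusted p ranged from 0.0554 to 0.567 for Mt1 and from 0.0713 to 0.567 for Mt2 over 7 other settings, DESeq2 among them. All 3 combination libraries lay above cisplatin library 6 and below libraries 4 and 5. Without library 6, both genes were called lower in the combination, Mt1 at -3.13 ± 0.221 (adjusted p = 6.49e-06) and Mt2 at -3.02 ± 0.265 (adjusted p = 2.22e-05), and 10.3% of the 20954 genes then tested were called lower. Library 6 stands out by its low values of these same genes, so leaving it out narrows the spread by construction. These p-values show the weight of that library and are not evidence of a difference. Without cisplatin library 4 the Mt1 value was -2.38 and without library 5 it was -1.99, neither called.

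The interaction asks whether cisplatin's effect differs with and without CBLB502, as the combination minus CBLB502, less cisplatin minus control. In kidney it was -2.90 ± 1.11 on the log2 scale for Mt1 (edgeR adjusted p = 0.130) and -2.78 ± 1.12 for Mt2 (adjusted p = 0.148), so neither was called, against 8.01% of genes called in either direction. Without cisplatin library 6 both were called, at -3.47 ± 0.295 (adjusted p = 3.86e-05) and -3.35 ± 0.358 (adjusted p = 0.000111). The library left out is again the one set apart by these genes, so these p-values are not evidence of an interaction.

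In liver, both genes were again far higher where cisplatin had been given. Mt1 was at 712, 1253 and 755 CPM in combination libraries 1, 2 and 3, at 4003, 3438 and 384 CPM in cisplatin libraries, at 9.84, 10.6 and 9.24 CPM with CBLB502, and at 21.2, 8.98 and 20.8 CPM in controls. Exposed and unexposed libraries did not overlap, and cisplatin library 3 was below all 3 combination libraries. Mt2 was at 412, 786 and 446 CPM in combination libraries, at 1984, 1660.5 and 243 CPM in cisplatin libraries, at 2.77, 1.10 and 1.04 CPM with CBLB502, and at 18.4, 1.70 and 7.85 CPM in controls. Its control libraries spread from 1.70 to 18.4 CPM, more widely relative to their level than those of the other liver arms.

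Against control, liver Mt1 rose to log2 fold changes of 5.74 ± 0.773 with the combination (53.3-fold by mean CPM, edgeR adjusted p = 0.000194) and 7.26 ± 0.829 with cisplatin (adjusted p = 5.08e-05). Mt2 rose to 5.89 ± 0.989 with the combination (58.9-fold, adjusted p = 0.000786) and 7.13 ± 1.05 with cisplatin (adjusted p = 0.000262). In these comparisons 23.8% and 25.6% of genes were called higher, in the same order. All 6 hepatocyte markers were also called higher over control in both (median log2 fold change 1.49 with the combination and 1.73 with cisplatin), and none of the 6 over CBLB502. Their part in the difference from control was not tested. The Mt2 values rested on control library 1, the highest control, without which they were 6.87 with the combination and 8.11 with cisplatin.

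Set against CBLB502 alone, the metallothioneins were among the genes that rose most in liver. The combination raised Mt1 91.7-fold over CBLB502 (6.52 ± 0.800, edgeR adjusted p = 0.000852) and Mt2 335-fold (8.39 ± 1.10, adjusted p = 0.00125), where 2.88% of genes were called higher. By fitted log2 fold change Mt2 ranked 9 and Mt1 44 of 17931 genes, from the highest down. Cisplatin alone raised Mt1 264-fold over CBLB502 (8.04 ± 0.855, adjusted p = 0.000553) and Mt2 793-fold (9.63 ± 1.16, adjusted p = 0.000905), ranks 21 and 5, where 7.70% of genes were called higher. The matching ranks in kidney were 302 for Mt1 and 196 for Mt2 with the combination and 114 and 94 with cisplatin, of 20341 genes. Over control the liver ranks were lower on the list, 974 for Mt1 and 930 for Mt2 with the combination and 323 and 358 with cisplatin. These liver calls, over CBLB502 and over control, held when any 1 library was left out. The Mt2 value over CBLB502 was 9.02 with the combination and 10.24 with cisplatin without CBLB502 library 1.

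CBLB502 alone gave liver metallothioneins below the control mean. Mt2 averaged 1.63 ± 0.980 CPM with CBLB502 and 9.31 ± 8.43 CPM in controls (SD, n = 3 each), and was called lower (log2 fold change -2.50 ± 0.858 SE, edgeR adjusted p = 0.0487), among 9.48% of genes called lower. The groups overlapped, since control library 2 lay below CBLB502 library 1. The call ended without any 1 of the 3 CBLB502 libraries, control 1 or control 3 (adjusted p up to 0.222), and with no filter on low counts (adjusted p = 0.0621). Mt1 averaged 9.89 ± 0.671 CPM with CBLB502 and 17.0 ± 6.95 CPM in controls, and was not called (-0.78 ± 0.639, adjusted p = 0.388). Without control 1 the Mt2 value was -1.52. Liver control libraries held few reads of these genes, with 22 to 182 Mt2 counts and 116 to 210 Mt1 counts each, and reads without molecular barcodes are not independent molecules.

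**Figure D2:**
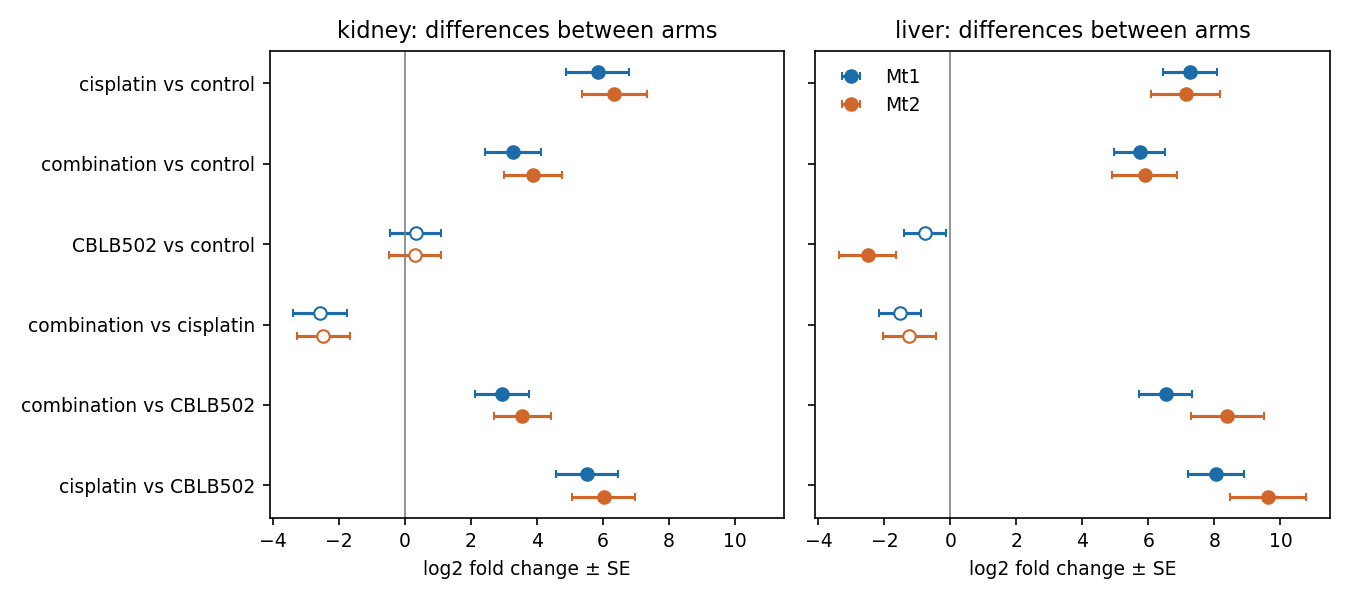
Log2 fold changes ± SE of Mt1 (blue) and Mt2 (orange) from the edgeR fit of each organ, for 6 comparisons of arms. Filled points passed an adjusted p of 0.05, and the combination against cisplatin is open in both organs, from -2.57 to -1.24.

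In liver the combination was not shown to differ from cisplatin. Mt1 averaged 907 ± 301 CPM in the combination and 2608 ± 1947 CPM in cisplatin (SD, n = 3 each), a log2 fold change of -1.52 ± 0.642 SE (unadjusted p = 0.0360 and adjusted p = 0.201 by edgeR). Mt2 averaged 548 ± 207 CPM in the combination and 1296 ± 926 CPM in cisplatin, at -1.24 ± 0.807 (unadjusted p = 0.151, adjusted p = 0.421). The groups overlapped for both, and 2.58% of genes were called lower in the combination. Without cisplatin library 3, Mt1 was called lower (-2.02 ± 0.335, adjusted p = 0.00144) and Mt2 was not (-1.72 ± 0.663, adjusted p = 0.0867), while 10.6% of 18531 genes were called lower. Library 3 stands out by its low values of these same genes, so this Mt1 call is not evidence of a difference. The liver interaction was -0.74 ± 0.895 for Mt1 (adjusted p = 0.598) and 1.26 ± 1.14 for Mt2 (adjusted p = 0.474), neither called, against 21.7% of genes called in either direction.

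Markers of neutrophils and macrophages varied between the same cisplatin libraries. The 6 neutrophil markers summed to 0.241, 1.89 and 0.413 CPM in kidney combination libraries 4, 5 and 6 and to 6.24, 26.6 and 1.06 CPM in kidney cisplatin libraries. In liver they summed to 0.211, 0.678 and 0.511 CPM in the combination and 26.3, 36.9 and 2.22 CPM in cisplatin libraries 1, 2 and 3. The 6 macrophage markers summed to 25.5 to 34.3 CPM in the kidney combination and to 436, 277 and 40.1 CPM in kidney cisplatin libraries, with the defining marker Adgre1 at 0 counts in libraries 4 and 5. In liver they summed to 14.2 to 20.3 CPM in the combination and 511, 209 and 66.0 CPM in cisplatin. CBLB502 and control libraries held 1.15 to 3.04 CPM of neutrophil and 30.6 to 60.4 CPM of macrophage markers in kidney, and 2.05 to 14 and 82.0 to 167 CPM in liver. The macrophage sums in liver cisplatin do not show a rise of the whole list. There, 1 of 6 macrophage markers was called higher and 3 lower over CBLB502, where 7.70% of genes were called higher and 4.84% lower. Over control 1 was called higher and 4 lower, where 25.6% of genes were called higher and 3139 of 17931 lower. In kidney cisplatin, 2 of 4 tested macrophage markers were called higher and 1 lower over CBLB502, where 18.5% of genes were called higher and 10.2% lower. Over control 1 of these 4 was called higher, near the 24.1% of all genes called higher there. In the combination against cisplatin, 2 of 5 tested neutrophil and 2 of 6 macrophage markers were called lower in liver, where 2.58% of genes were. Over CBLB502, 5 of 6 macrophage and 1 of 5 neutrophil markers were called lower in combination liver, where 3.86% of genes were. Over control, 5 macrophage and 3 neutrophil markers were called lower there, as were 2939 of 17931 genes. In combination kidney no marker of either list was called over CBLB502 or over control. In both organs the cisplatin library lowest in Mt1 and Mt2 was also lowest in both marker sums. The part of these cells in the metallothionein values was not tested.

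Erythroid markers separated the exposed from the unexposed libraries in the opposite direction to Mt1 and Mt2. The 5 markers, globin genes among them, summed to 2.09 to 6.73 CPM in combination kidney, 1.03 to 4.54 in cisplatin kidney, 164 to 718 in CBLB502 kidney and 190 to 1003 in control kidney. In liver they summed to 11.5 to 17.2, 4.23 to 9.42, 173 to 190 and 141 to 605 CPM in the same arms. All 5 were called lower over CBLB502 with the combination, where 8.98% of genes were called lower in kidney and 3.86% in liver, and with cisplatin, where 10.2% and 4.84% were. All 5 were also called lower over control in both exposed arms of both organs. Of all genes tested over control, 3099 of 20341 were called lower with cisplatin and 3060 with the combination in kidney. In liver these were 3139 and 2939 of 17931. Whether this difference has a part in the metallothionein values was not tested.

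As a share of all counts outside mitochondrial genes and their copies, Mt1 and Mt2 together took 0.0935%, 0.0810% and 0.0737% in kidney combination libraries, 0.540%, 0.727% and 0.0249% in kidney cisplatin libraries, 0.0115% to 0.0138% with CBLB502 and 0.00878% to 0.0147% in controls. In kidney cisplatin libraries 4 and 5, Mt1 ranked 14 and 9 by count of 33228 genes, and in library 6 it ranked 1084. In liver the share was 0.194%, 0.331% and 0.200% in combination libraries, 0.716%, 0.646% and 0.0998% in cisplatin libraries, 0.00218% to 0.00267% with CBLB502 and 0.00297% to 0.0139% in controls. This measure leaves out the counts in which the controls differ most, and the exposed libraries of each organ again lay above all unexposed ones.

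Between organs, levels were set on library sizes scaled over all 24 libraries together. Mt1 averaged, from the highest group down, 3727 ± 2777 CPM in liver cisplatin, 1515 ± 1297 in kidney cisplatin, 1249 ± 413 in liver combination, 257 ± 33.6 in kidney combination, 35.7 ± 3.84 in kidney CBLB502, 25.6 ± 5.57 in kidney control, 24.3 ± 9.63 in liver control and 13.9 ± 0.870 in liver CBLB502 (SD, n = 3 each). Neighbours in this order overlapped except liver combination over kidney combination, kidney combination over kidney CBLB502, and kidney CBLB502 over kidney control. The last of these pairs was not called and overlapped on the kidney scale. Mt2 followed the order 1852 ± 1321 CPM in liver cisplatin, 755 ± 284 in liver combination, 676 ± 565 in kidney cisplatin, 124 ± 17.2 in kidney combination, 13.2 ± 11.7 in liver control, 11.2 ± 2.04 in kidney CBLB502, 8.11 ± 2.77 in kidney control and 2.29 ± 1.35 in liver CBLB502. Mt2 neighbours overlapped except kidney combination over liver control and kidney control over liver CBLB502, a pair of contrasts that were not tested.

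After the combination, kidney held less metallothionein RNA than liver. Mt1 was 4.85-fold lower in kidney (log2 fold change -2.28 ± 0.784, edgeR adjusted p = 0.0253 over 21570 genes) and Mt2 6.09-fold lower (-2.61 ± 0.881, adjusted p = 0.0230), with no overlap, where 17.2% of genes were called lower. Both calls ended without any 1 of the 3 kidney combination libraries or without liver combination library 2 (adjusted p up to 0.0806). After cisplatin alone the organs overlapped and neither gene was called (Mt1 -1.30 ± 0.760, adjusted p = 0.201; Mt2 -1.45 ± 0.847, adjusted p = 0.199), where 34.9% of genes were called in either direction. With CBLB502 alone the direction was the other way without a call (Mt1 1.36 ± 0.763, adjusted p = 0.199; Mt2 2.28 ± 0.879, adjusted p = 0.0560), where 29.9% of genes were called. In controls Mt1 was at 0.08 ± 0.759 and Mt2 at -0.70 ± 0.861 (adjusted p = 0.987 and 0.569), where 33.9% were called.

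The rise of the combination over CBLB502 alone was itself smaller in kidney than in liver. The difference of the log2 fold changes, kidney minus liver, was -3.64 ± 1.09 for Mt1 (edgeR adjusted p = 0.0487) and -4.89 ± 1.24 for Mt2 (adjusted p = 0.0211), where 2.87% of genes were called on that side. The Mt1 call ended when any 1 of the 12 libraries was left out (adjusted p 0.0707 to 0.113), and the Mt2 call without kidney combination 5 or 6, liver combination 2, or liver CBLB502 2 or 3 (up to 0.0645). For cisplatin against control the difference was -1.38 ± 1.07 for Mt1 (adjusted p = 0.448) and -0.76 ± 1.20 for Mt2 (adjusted p = 0.781), neither called, where 14.2% of genes were called in either direction.

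The balance between both genes moved as well. In kidney the ratio of Mt1 counts to Mt2 counts was 2.12, 1.91 and 2.22 in combination libraries and 2.11, 2.35 and 2.10 in cisplatin libraries, against 3.50, 3.34 and 2.86 with CBLB502 and 2.85, 3.73 and 3.19 in controls. Cisplatin library 6, low in both genes, had the ratio of the other exposed libraries. The 6 exposed libraries averaged 1.09 ± 0.0986 log2 units and the 6 others 1.69 ± 0.156 (SD), with no overlap, a difference of -0.60 (exact two-sided permutation test over libraries, p = 0.00216, the smallest that 6 against 6 allows). With any 1 library left out the difference stayed between -0.64 and -0.56 (exact permutation p = 0.00433). Against the CBLB502 libraries alone it was -0.60 (exact permutation p = 0.0238, 6 against 3).

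In liver the ratio was 1.73, 1.59 and 1.69 in combination libraries and 2.02, 2.07 and 1.58 in cisplatin libraries, against 3.56, 9.64 and 8.89 with CBLB502 and 1.15, 5.27 and 2.65 in controls. Exposed and control libraries overlapped, through control library 1. The difference over 6 and 6 libraries was -1.22 log2 units (exact two-sided permutation p = 0.0368) and passed 0.05 in 4 of 12 leave-outs only (p up to 0.0736). Against CBLB502 alone, where no library overlapped, it was -1.93 (exact permutation p = 0.0238, 6 against 3). Between combination and cisplatin it was -0.17 in liver and -0.07 in kidney, with overlap in both. An exact permutation test of 3 with 3 libraries cannot go below p = 0.1.

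**Figure D3:**
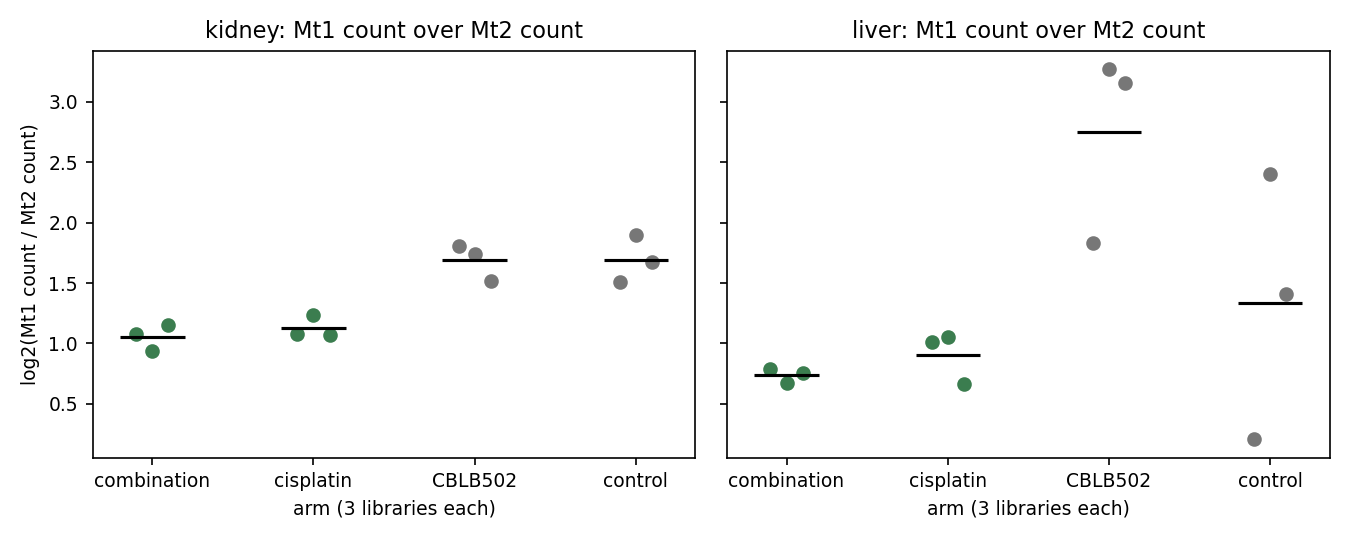
Log2 ratio of Mt1 counts to Mt2 counts in each library, by arm, with means of 3 libraries as black lines. Green points are arms given cisplatin and grey points arms without it. In kidney the green points do not reach the grey ones, and in liver control library 1 lies below all green points.

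Which of both genes stood higher per base of RNA depends on the length used. The exons of all annotated transcripts cover 1246 bases in Mt1 and 588 in Mt2, a ratio of 2.12, and the deposited FPKM imply that same ratio (median 2.12). Most of the Mt1 excess comes from a single-exon transcript of 1085 bases, whereas the main spliced transcripts of Mt1 and Mt2 are 549 and 511 bases long. In the authors' deposited FPKM, Mt1 over Mt2 was 0.752 to 0.815 in liver combination, 0.746 to 0.977 in liver cisplatin, 1.68 to 4.55 in liver CBLB502 and 0.542 to 2.55 in liver control. Per base of the spliced transcripts, Mt1 stood above Mt2 in all 24 libraries, at 1.47 to 1.93 times in exposed liver, 1.07 to 8.97 times in unexposed liver, 1.78 to 2.19 times in exposed kidney and 2.65 to 3.48 times in unexposed kidney.

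The other family genes stayed low. Mt3, best known from brain, was at 0.188 to 0.326 CPM in combination kidney, 0.442 to 0.563 in cisplatin kidney, 0.289 to 0.643 in CBLB502 kidney and 0 to 0.507 in control kidney. In liver it was at 0.101 to 0.224 CPM in the combination, at 2.46, 1.15 and 0 CPM in cisplatin libraries 1, 2 and 3, at 0.0382 to 0.185 CPM with CBLB502, and at 8.08, 0 and 0 CPM in controls 1, 2 and 3. Its highest level of all libraries was thus in liver control 1, on 80 counts. In kidney the arms overlapped, except that the combination lay below cisplatin. It was not called in any of the 12 comparisons of arms within an organ (edgeR, adjusted p from 0.113 to 0.954). Mt4, best known from squamous epithelium, had 266 counts in liver cisplatin library 1, 68 in library 2 and none in the other 22 libraries, where 3 counts, the limit that a count of 0 allows, would be 0.0254 to 0.303 CPM (counting error only). It did not pass the filter on low counts and was not tested. The libraries that held Mt4 were those with the most Mt1 and Mt2 in liver.

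Next to Mt2 lies an antisense gene, Gm45774 (94170748 to 94173412, minus strand), which overlaps it over 749 bases. The strand setting of the counts is not given in the sources used here, so reads of Mt2 and Gm45774 cannot be told apart with certainty. Gm45774 had 2.01% to 4.37% of the Mt2 count in exposed kidney, 2.14% to 4.87% in CBLB502 kidney, and 2.59%, 4.79% and 21.2% in kidney controls 1, 2 and 3. In liver it had 5.41% to 17.1% in exposed libraries, 2.76% to 11.7% with CBLB502, and 5.49%, 77.3% and 73.1% in controls 1, 2 and 3. The share was thus highest in liver controls 2 and 3, with 17 and 57 antisense counts beside 22 and 78 Mt2 counts, and these libraries enter the Mt2 level and the ratio of the liver controls. In liver it was at 55.2, 56.7 and 64.1 CPM in the combination, 108, 89.8 and 41.4 CPM in cisplatin, 0.0389 to 0.128 CPM with CBLB502 and 1.01 to 5.74 CPM in controls. Against CBLB502 it rose 9.46 ± 0.786 log2 units with the combination (edgeR adjusted p = 0.000176) and 9.90 ± 0.797 with cisplatin (adjusted p = 0.000156). Gm45774 fell with CBLB502 alone in liver (-5.00 ± 0.706, edgeR adjusted p = 0.000450). Mt2 was also called lower there (-2.50 ± 0.858, edgeR adjusted p = 0.0487), while Mt1 was not called. The fall of Gm45774 rests on few reads, 10, 17 and 57 counts in controls and 8, 14 and 4 with CBLB502.

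Of the nearest genes outside the family, Bbs2, a ciliary transport gene 111 kb below the Mt1 start, and Nup93, a nuclear pore gene 35.5 kb above it, were not called in either organ against CBLB502. Their log2 fold changes were -0.12 to 1.14 for Bbs2 and -0.79 to 0.98 for Nup93. Rpl10-ps5, a pseudogene inside Nup93, was called higher in 3 of these 4 comparisons, at 0.77 to 1.11. The noncoding gene Gm39228, 4.21 kb above the Mt1 start, had at most 1.70 CPM and was called with cisplatin in kidney (4.73 ± 1.38, adjusted p = 0.0294). Gm45873 was not tested.

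**Figure D4:**
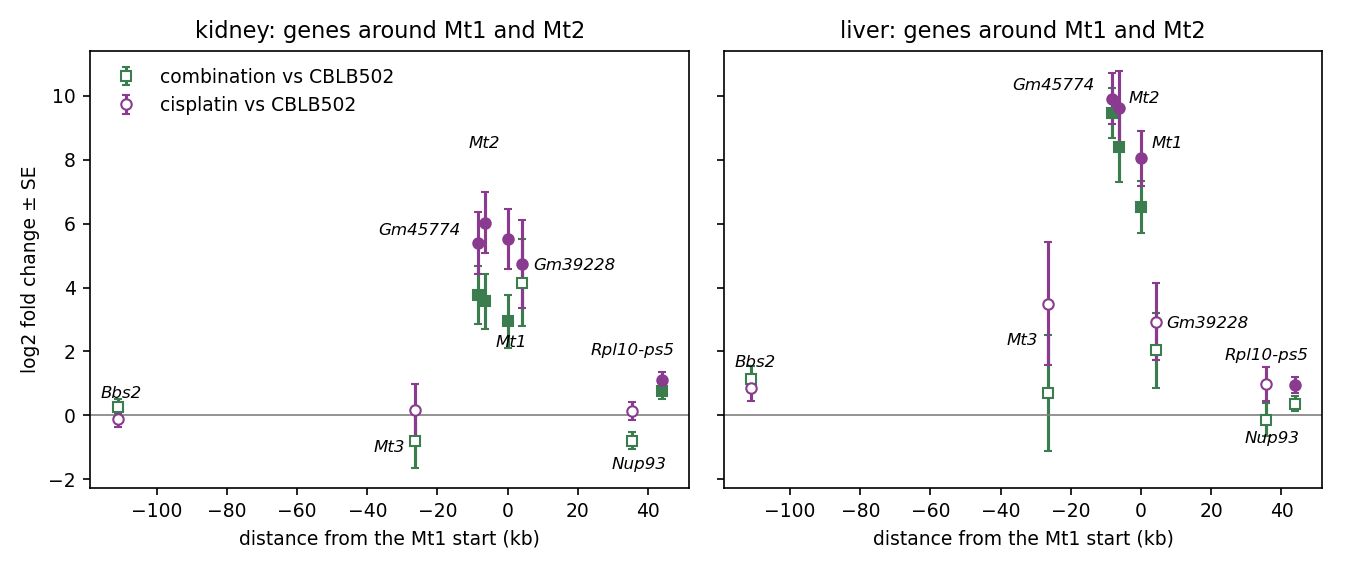
Log2 fold changes ± SE over CBLB502 of genes around Mt1, by distance from the Mt1 start in kb, for the combination (green squares) and cisplatin (purple circles). Filled symbols passed an adjusted p of 0.05. Gm45774, Mt2 and Mt1 stand above 2.9 in both organs, while Bbs2 and Nup93 lie between -0.79 and 1.14.

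Mtf1, the zinc sensor that drives metallothionein transcription, was at 7.90 to 9.38 CPM in combination kidney, 10.0 to 13.6 in cisplatin kidney, 13 to 14.4 in CBLB502 kidney and 10.2 to 12.5 in control kidney. It was called in 1 comparison of arms, lower in the combination than with CBLB502 in kidney (-0.68 ± 0.172, edgeR adjusted p = 0.0143). Slc30a1, a zinc exporter that MTF1 also induces, rose over control in every treated arm, by 2.60 ± 0.202, 1.82 ± 0.198 and 2.25 ± 0.200 log2 units with the combination, cisplatin and CBLB502 in kidney. In liver it rose by 3.44 ± 0.315, 3.69 ± 0.318 and 2.47 ± 0.306 in the same arms, so unlike Mt1 and Mt2 it was higher with CBLB502 alone. Over CBLB502 it was called with cisplatin in liver (1.22 ± 0.278, adjusted p = 0.0160). Slc39a14, a zinc importer of liver induced by interleukin-6, was at 253 to 371 CPM in combination liver, 172 to 741 in cisplatin liver, 90.1 to 106 in CBLB502 liver and 24.2 to 40.2 in control liver. It rose over CBLB502 with the combination (1.67 ± 0.430, adjusted p = 0.0404) and cisplatin (2.40 ± 0.441, adjusted p = 0.00645).

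Pathways known to act on metallothionein genes were counted over CBLB502, on lists drawn up from textbook knowledge. The background for these counts is the share of all genes called, which with the combination was 14.9% higher and 8.98% lower in kidney and 2.88% higher and 3.86% lower in liver. With cisplatin it was 18.5% higher and 10.2% lower in kidney and 7.70% higher and 4.84% lower in liver. Of the metal list, MTF1 with zinc and copper carriers, 3 of 15 tested genes rose and 2 fell in kidney with the combination (median log2 fold change -0.10, against -0.02 over all genes), and 1 of 16 rose in liver (median -0.03, against 0.02). On these small numbers the metal list in kidney was near the background in both directions over CBLB502. With cisplatin, 3 rose and 1 fell in kidney, led by the copper chaperone Atox1 (2.30 ± 0.323), and 3 rose in liver. Over control, the metal list had already moved with CBLB502 alone: 7 of 15 rose in kidney and 10 of 16 in liver, where 1 fell. Of all genes, 2324 of 20341 and 3284 of 17931 were called higher there. With the combination 10 rose and 1 fell in kidney and 9 rose in liver, against 21.5% and 23.8% of genes called higher. With cisplatin 11 rose and 1 fell in kidney and 9 rose in liver, against 24.1% and 25.6%. Over CBLB502 again, 11 of 13 glucocorticoid genes, the receptor and its targets, rose in kidney (median 2.12) and 9 in liver (median 1.76) with the combination. With cisplatin, 9 rose and 1 fell in kidney (median 1.66) and 7 rose in liver (median 0.98). Among them Ddit4 rose by 3.12 ± 0.536 in kidney and 4.72 ± 0.691 in liver with the combination. Ddit4 is an inhibitor of mTOR signalling, and its full name is DNA-damage-inducible transcript 4. Igfbp1, which binds insulin-like growth factors, rose by 3.24 ± 0.906 in kidney and 6.84 ± 1.12 in liver with the combination.

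Of 12 genes of the interleukin-6, STAT3 and acute-phase list, 5 rose and 1 fell in kidney (median 1.75) and 5 rose in liver (median 1.9) with the combination, against 6 in kidney (median 3.09) and 10 in liver (median 3.25) with cisplatin. In kidney the combination's count was above the background of 14.9% called higher, as was its liver count above 2.88%, without a test of the list. Hp, which binds haemoglobin, and Lbp, which binds lipopolysaccharide, rose by 2.77 ± 0.499 and 2.26 ± 0.408 in liver with the combination. Of 12 NRF2 and oxidative stress genes, 3 rose in kidney (median 0.75) and 1 fell in liver (median -0.02) with the combination, against 8 in kidney (median 1.41) and 3 in liver (median 0.47) with cisplatin. In kidney with the combination, 3 of 12 is close to the 14.9% called higher over all genes. The gene that fell was Hmox1, which degrades haem (-3.17 ± 0.621, edgeR adjusted p = 0.0113). All 5 erythroid and 5 of 6 macrophage markers were also called lower in that comparison, and their part in the Hmox1 value was not tested. Medians over all genes lay between -0.06 and 0.02 in these comparisons.

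The genes most like Mt1 and Mt2 were taken by Pearson correlation with the mean log2 CPM of the pair over the 12 libraries of an organ, which share depth and scaling. In liver, among 8818 genes, these were Cdkn1a (r = 0.989), Cebpd, a transcription factor of the acute phase (0.982), Zfp622 (0.970), Trp53inp1, a target of p53 (0.962), and Ddit4 (0.960). In kidney, among 10780 genes, these were H3f3b, a histone H3.3 gene (r = 0.994), Stat3, which carries the interleukin-6 signal (0.992), Sdc1, a cell surface proteoglycan (0.992), Map2k3, a kinase of the p38 pathway (0.992), and Mad2l2, of DNA damage bypass (0.991). Over the 9 treated libraries alone the correlations were 0.968 to 0.991 in liver and 0.990 to 0.997 in kidney. These 9 are among the 12 libraries by which the genes were picked, so high values were built in and are no separate check. The difference between libraries given cisplatin and the others enters all of these correlations. The sizes of the changes can be set side by side for Cdkn1a and Stat3. In liver over CBLB502, Cdkn1a differed by 6.60 log2 units with the combination and 6.87 with cisplatin, beside 6.52 and 8.04 for Mt1 and 8.39 and 9.63 for Mt2. In liver over control, Cdkn1a differed by 5.62 and 5.89 in the same arms, beside 5.74 and 7.26 for Mt1 and 5.89 and 7.13 for Mt2. In kidney over CBLB502, Stat3 differed by 1.47 and 2.16, beside 2.95 and 5.52 for Mt1 and 3.57 and 6.03 for Mt2. Differences in size between these genes were not tested.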

How the data were processed

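Per the file headers, the authors deposited 1 table of 33272 genes that holds raw counts and FPKM. Trimming with cutadapt 1.9 and quality control with FastQC are listed in the submitters' processing notes. Which aligner, counter, strand setting and genome build were used is not given in the sources used here. The authors' deposited FPKM served for the Mt1 to Mt2 ratio and the implied length, from the 15 columns tied to 1 sample each, while 9 treated kidney columns tied only to a group were left out.

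The tests used the deposited counts in edgeR 4.0.16 (R 4.3.3), after filterByExpr and TMM scaling, with quasi-likelihood fits and Benjamini-Hochberg adjustment over all genes, with a threshold of 0.05. The 12 libraries of an organ were fitted together, over 17931 genes in liver and 20341 in kidney, and all 24 over 21570 genes for comparisons between organs. CPM are on TMM-scaled library sizes, folds are ratios of mean CPM, and log2 CPM for correlations have a prior count of 2. The ratio of Mt1 to Mt2 counts was tested by exact permutation in scipy 1.17.1. Scripts were tested on simulated data.

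Alternatives were RLE scaling, no filter on low counts, leaving out mitochondrial genes and 7 nuclear copies, DESeq2 1.42.0, fitting only the libraries compared, a replicate block in liver, only the treated kidney libraries with and without a block on their column number, and leaving out each library. Genes named beside Mt1 and Mt2 were the other family genes, Mtf1, Slc30a1 and Slc39a14, up to 3 called genes of each list with the largest change, the nearest neighbours, and the 5 genes per organ most correlated with the pair among those with a mean of at least 5 CPM in some arm. Library depth limits precision most in the controls. The members and the lists were chosen with earlier results of these data known.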

Additional observations from a re-analysis of the deposited data

Results flagged for a closer look

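The effect of the combination over CBLB502 alone differed between organs by the test of the difference itself. It was smaller in kidney than in liver for Mt1, with a difference of the log2 fold changes of -3.64 ± 1.09 SE (edgeR adjusted p = 0.0487), and for Mt2, with -4.89 ± 1.24 (adjusted p = 0.0211). In kidney the effect was 2.95 for Mt1 and 3.57 for Mt2, in liver 6.52 and 8.39, all higher in the combination. The Mt1 call rests on every library, as leaving out any 1 of the 12 ended it (adjusted p 0.0707 to 0.113). The liver CBLB502 libraries, with 107 to 290 Mt2 counts each, set the low end of the liver effect.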

How the results depend on the processing

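Of 226 values recomputed under RLE scaling, no filter, mitochondrial genes left out, DESeq2, only the libraries compared, only treated kidney libraries, a replicate block or, for the ratio of Mt1 to Mt2, a pseudocount of 1 or no controls, 217 kept their direction and their side of the threshold. With no filter on low counts, Mt2 in liver with CBLB502 against control came to -2.41 (edgeR adjusted p = 0.0621) and the Mt1 difference between organs, combination against CBLB502, to -3.59 (adjusted p = 0.0562). This difference was -3.66 (adjusted p = 0.0538) without mitochondrial genes. Kidney against liver with CBLB502 became called for Mt2 at 2.43 without mitochondrial genes, at 2.31 with DESeq2 and at 2.26 with only the libraries compared, where Mt1 was also called at 1.33. RLE scaling changed no call of Mt1 or Mt2, although it moved the median of all genes in liver, combination against control, by over 0.1 log2 units to -0.16, against 0.14 with TMM, and the genes called to 3109 higher and 3703 lower, against 4264 and 2939. Over all genes DESeq2 called 174 genes higher and 435 lower in kidney, combination against cisplatin, where edgeR called 1 and 0, and 861 and 1682 in liver, where edgeR called 178 and 462. The cause was not tested.

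Leaving out 1 library kept 259 of 312 values on their side. The log2 ranges were 2.84 to 3.02 for Mt1 and 3.45 to 3.74 for Mt2 in kidney, combination against CBLB502, and -3.13 to -1.99 and -3.02 to -1.97 against cisplatin. The kidney interaction ran from -3.47 to -2.30 for Mt1 and -3.35 to -2.27 for Mt2. In liver, Mt1 in the combination against cisplatin ran from -2.02 to -1.08 and Mt2 with CBLB502 against control from -3.07 to -1.52. Kidney against liver in the combination ran from -2.42 to -1.97 for Mt1 and -2.76 to -2.25 for Mt2, and the difference between organs, combination against CBLB502, from -3.75 to -3.30 and -5.45 to -4.51. In controls, kidney against liver ran from -0.22 to 0.27 for Mt1, turning to -0.07 without kidney control 1 and -0.22 without liver control 2, and from -1.19 to 0.24 for Mt2, turning to 0.24 without liver control 1. The liver ratio of Mt1 to Mt2 ran from -1.59 to -0.98.

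With the replicate number as a block in liver, no call of Mt1 or Mt2 changed: Mt2 with CBLB502 against control was -2.49 ± 0.793 (adjusted p = 0.0449), and the calls over all genes, combination against cisplatin, numbered 123 higher and 267 lower. Same-numbered liver libraries correlated from -0.17 to 0.18, over 0.1 in 5 of 18 pairs, and 6 of 12 libraries correlated best with their own number, so the numbers were not taken to pair them. In kidney the treated columns carry the numbers 4 to 6, which the labels do not use, and the controls 1 to 3, so a block was fitted over the 9 treated libraries alone, chosen after seeing the data. With it the combination against CBLB502 lost both calls, at 2.84 for Mt1 (adjusted p = 0.0800) and 3.41 for Mt2 (adjusted p = 0.0525), where the same libraries without the block gave 2.90 (adjusted p = 0.0465) and 3.52 (adjusted p = 0.0241). Cisplatin against CBLB502 stayed called, and the combination against cisplatin not called, with and without this block. Same-numbered kidney libraries correlated from -0.13 to 0.07, over 0.1 in 0 of 9 pairs, and 1 of 9 correlated best with its own number, so these numbers were not taken to pair them either. Depth limits the control libraries most, with 22 to 182 Mt2 counts each in liver and 188 to 231 in kidney.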
